A study of Mus musculus with 6 samples.

Results

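Genes for cholesterol synthesis and sterol handling were followed in RNA of mouse liver sinusoidal endothelial cells, the fenestrated cells that line the liver's capillaries. The 27 genes were taken by name from a table of 48897 genes, with earlier results of these data known, and all 27 passed the filter on low counts that 19033 genes passed. They comprise 7 enzymes from acetoacetyl-CoA to farnesyl diphosphate, 10 enzymes from squalene synthesis to cholesterol, 5 genes of sterol sensing and 5 genes of sterol transport, export and storage. Cells came from C57BL/6 mice aged 7 to 8 weeks, on day 14 after a surgical resection of liver lobes known as partial hepatectomy (PHx) or a sham procedure (Sham), and were isolated with magnetic beads against CD146. Libraries are numbered 1, 3 and 4 in each group. The labels do not say whether each library came from a separate mouse, so p-values measure only the spread between these libraries, which may be technical.

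Cells make cholesterol from acetyl-CoA through mevalonate, farnesyl diphosphate, squalene and lanosterol. When membrane cholesterol in the endoplasmic reticulum is low, the escort protein Scap carries the precursors of the SREBP transcription factors, encoded by Srebf1 and Srebf2, to the Golgi, where they are cut and released to switch on the genes of synthesis. When cholesterol is high, the Insig proteins hold Scap back, while oxysterols activate the nuclear receptors LXR, which switch on export through Abca1 and Abcg1 and the ubiquitin ligase Mylip. In the liver, hepatocytes are the main producers of cholesterol, and sinusoidal endothelial cells take up lipoproteins and other particles from the blood.

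Promoters of sterol-regulated genes are known to carry motifs of SREBP and of its partner NF-Y. RefSeq promoter windows of GRCm38.p6, each 300 bases long, were matched for 22 of the 27 genes, in 30 windows, since some genes have more than 1 start. The 4 windows printed belong to genes described below: an entry enzyme of the pathway, its transcription factor, the most abundant of the 27 genes, and the synthesis enzyme with the smallest p-value. They are read 5′ to 3′ on the gene's strand, and capitals mark TCACCCCA (the core of a sterol regulatory element), CCAAT (the site of NF-Y, spelled ATTGG where it lies on the other strand), CACGTG (an E-box) and TATAAA, on either strand; in these windows the marked motifs do not overlap.
Hmgcs1, chr13:119690101-119690400, plus strand: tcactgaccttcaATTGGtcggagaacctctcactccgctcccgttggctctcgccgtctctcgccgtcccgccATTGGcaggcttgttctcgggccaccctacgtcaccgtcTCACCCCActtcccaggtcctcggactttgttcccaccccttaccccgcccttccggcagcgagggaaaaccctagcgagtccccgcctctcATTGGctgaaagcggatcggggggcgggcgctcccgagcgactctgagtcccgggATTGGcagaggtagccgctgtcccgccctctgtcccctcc
Srebf2, chr15:82147019-82147318, plus strand: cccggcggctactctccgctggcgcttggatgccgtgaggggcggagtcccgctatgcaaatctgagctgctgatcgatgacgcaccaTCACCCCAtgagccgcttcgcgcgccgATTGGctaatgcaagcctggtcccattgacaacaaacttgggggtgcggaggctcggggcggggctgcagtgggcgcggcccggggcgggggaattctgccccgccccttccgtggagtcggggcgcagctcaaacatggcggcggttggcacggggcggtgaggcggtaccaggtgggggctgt
Mylip, chr13:45389492-45389791, plus strand: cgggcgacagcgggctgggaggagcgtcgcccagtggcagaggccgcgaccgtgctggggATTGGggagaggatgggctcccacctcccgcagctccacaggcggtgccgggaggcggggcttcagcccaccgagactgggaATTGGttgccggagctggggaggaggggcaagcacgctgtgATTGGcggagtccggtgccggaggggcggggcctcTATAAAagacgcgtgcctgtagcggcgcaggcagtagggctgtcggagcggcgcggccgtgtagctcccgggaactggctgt
Ebp, chrX:8193463-8193762, minus strand: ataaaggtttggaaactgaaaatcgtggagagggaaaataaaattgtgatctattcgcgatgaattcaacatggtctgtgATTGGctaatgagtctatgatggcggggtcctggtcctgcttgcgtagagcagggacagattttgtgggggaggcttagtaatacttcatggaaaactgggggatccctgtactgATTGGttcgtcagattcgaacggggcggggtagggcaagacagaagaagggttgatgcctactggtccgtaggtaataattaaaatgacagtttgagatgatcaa

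Fdps, Fdft1, Sqle, Abcg1 and Stard4 had no window and were not searched. Of the genes searched, Hmgcs1 and Srebf2 were those whose windows held TCACCCCA. These were 2 of 30 windows (6.67%) against 1.56% of all 32851 windows in the table. The longer spelling TCACNCCAC was found in 1 window (3.33%, against 1.24% of all windows). The full sterol element, which adds a base at each end of TCACCCCA, was found in 0 of 30 windows, against 0.0913% of all windows. CCAAT stood in 20 of 30 windows (66.7%, against 37.4% of all windows) and GGGCGG, the GC box of Sp1, in 25 of 30 (83.3%, against 35.7%). CACGTG was present in 7 windows (23.3%, against 7.15%) and TATAAA in 4 (13.3%, against 13.6%). All motifs were searched on both strands, and windows of 1 gene can overlap. A match describes letters in the window and shows no binding.

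The libraries held between 38765116 and 51888481 counts. Levels are given as RPKM, counts divided by gene length and by library size. Library sizes were scaled by edgeR's TMM method for comparison between libraries. Comparison between genes rests on the deposited gene lengths. Endothelial markers were abundant. Stab2, a scavenger receptor of sinusoidal endothelium, averaged 499 ± 114 RPKM in PHx and 762 ± 60.6 RPKM in Sham (SD, n = 3 each). Lyve1, Pecam1 and Cdh5 all stood at 134.8 RPKM or more in every library. Lyve1 averaged 204 ± 87.0 RPKM in PHx and 183 ± 22.7 RPKM in Sham, with overlapping groups. Pecam1 averaged 328 ± 31.1 RPKM in PHx and 380 ± 7.45 RPKM in Sham, without overlap. Cdh5 averaged 400 ± 85.0 RPKM in PHx and 506 ± 20.9 RPKM in Sham, also without overlap. Summed over 11 endothelial markers, PHx libraries held 17191 to 27106 CPM (counts scaled to library size without gene length) and Sham libraries 31790 to 33577 CPM, with no overlap, while 0 of the 11 were called. Of 9 stellate and fibroblast markers 6 were called higher, with sums of 4871 to 6378 CPM in PHx and 1629 to 2074 CPM in Sham. Sums of 10 neutrophil markers were 628, 26.4 and 4170 CPM in PHx 1, 3 and 4, and 302, 164 and 27.3 CPM in Sham 1, 3 and 4. Those of 14 hepatocyte markers were 2139, 892 and 2346 CPM in PHx 1, 3 and 4, and between 1866 and 2417 CPM in Sham. Of the Kupffer, lymphocyte, cholangiocyte and erythroid lists 0 markers were called, with sums of 134 to 173, 8.11 to 17.8, 54.4 to 97.8 and 20.5 to 39.5 CPM in PHx, against 114 to 480, 11.6 to 20.9, 44.4 to 80.9 and 6.36 to 13.8 CPM in Sham.

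The 27 genes spanned a wide range of levels, from 0.540 RPKM for Lss to 199 RPKM for Mylip as means over the 6 libraries, with a median of 6.01 RPKM against 3.10 RPKM over all genes tested. Mylip stood far above the rest, and its lowest library, at 102 RPKM, lay above the highest library of Abcg1, at 43.2 RPKM. Abcg1 (37.8 RPKM) in turn lay above Abca1 (21.9 RPKM) in every library. Srebf1 (18.7), Srebf2 (17.1), Stard4 (15.7), Ebp (15), Insig1 (13.1), Scap (12) and Hmgcs1 (10.1 RPKM) followed, and each neighbouring pair in that order overlapped over the libraries. Synthesis enzymes were mostly lower, with a median of 4.20 RPKM and only Ebp and Hmgcs1 above 10 RPKM. At the low end, Hsd17b7 (0.842 RPKM) and Lss overlapped each other and lay below all other members in RPKM. That order depends on gene length: Hsd17b7 had 204 to 248 counts per library at 5583 bp, and Pmvk 188 to 275 counts at 1705 bp.

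**Figure D1:**
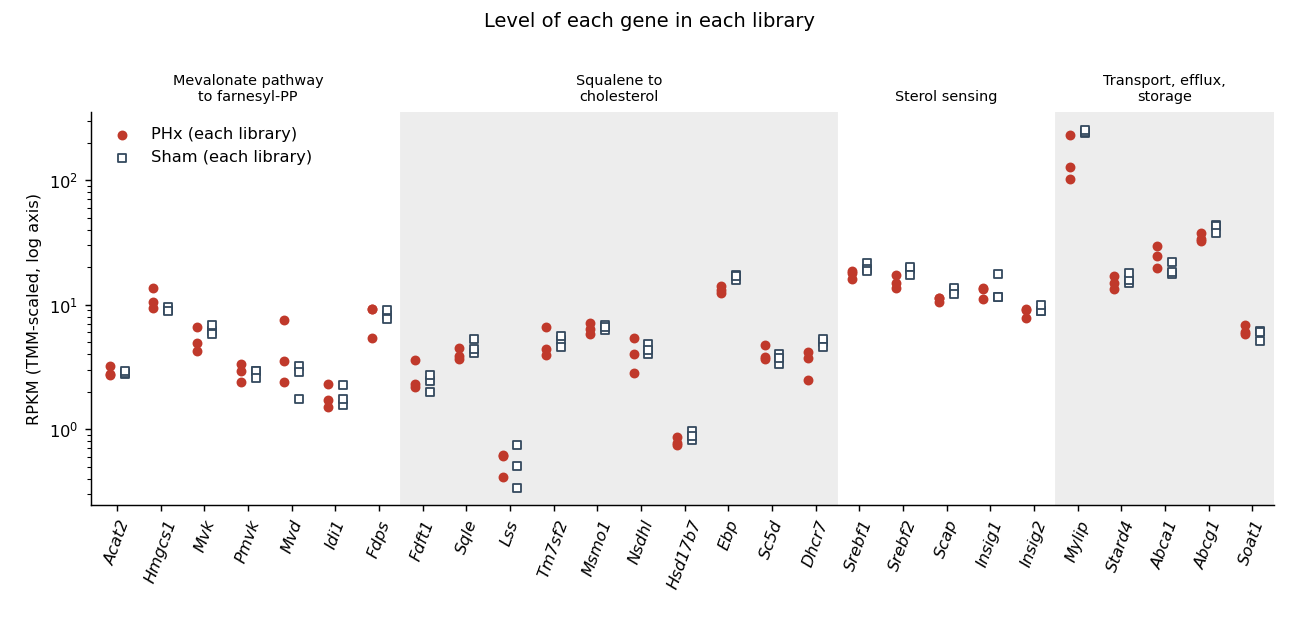
Level of each of the 27 genes in each library, in TMM-scaled RPKM on a log axis, grouped by role, with PHx libraries as filled circles and Sham libraries as open squares. Mylip lies between 102 and 251 RPKM in the 6 libraries, and Lss and Hsd17b7 lie below 1 RPKM in all of them.

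The comparison of PHx with Sham asked which of these transcripts differed on day 14. Of the 27, edgeR's quasi-likelihood test called 0 higher and 0 lower (threshold 0.05 on adjusted p), whereas 0.862% of all genes tested were called, 0.846% higher and 0.0158% lower. DESeq2 called 0 of the 27, with 3.8% of its genes higher and 0.439% lower, and limma-voom 0 of the 27, with 0.494% higher and 0.00525% lower. The smallest adjusted p was 0.283, for Ebp. Without adjustment, 4 of the 27 (14.8%) had lower values in PHx at p under 0.05, namely Ebp, Dhcr7, Srebf2 and Scap, and 0 had higher ones, against 4.73% lower and 7.93% higher over all genes tested. For 6 genes, those 4 with Srebf1 and Mylip, all PHx libraries lay below all Sham libraries (22.2%, against 9.96% of all genes), and for 0 they lay above (against 10.6%). The median log2 fold change of the 27 was -0.09, with 18 negative values, and that of all genes tested was 0.03.

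**Figure D2:**
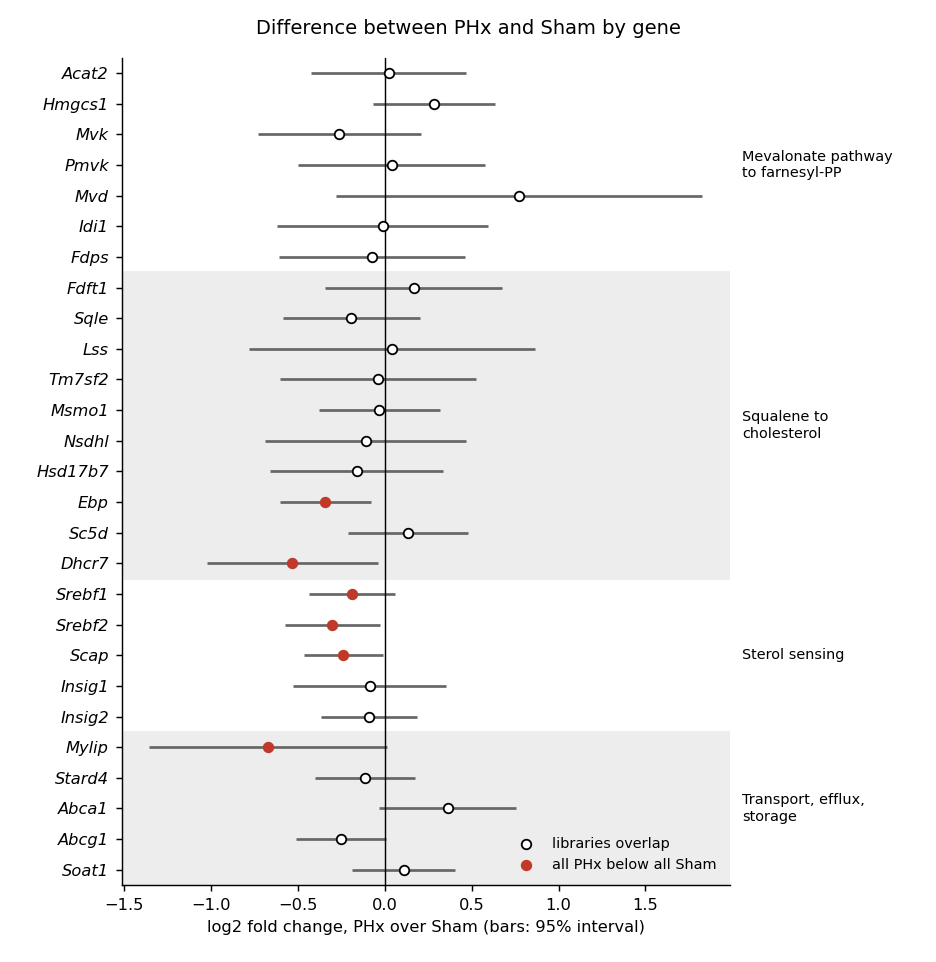
Log2 fold change of PHx over Sham for each gene, with its 95% interval (not adjusted for the number of genes), in order of the pathway. Filled circles mark the 6 genes whose PHx libraries all lie below all Sham libraries, and the intervals of Ebp, Dhcr7, Srebf2 and Scap leave out 0.

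The first 7 enzymes build farnesyl diphosphate. Hmgcs1, which makes HMG-CoA from acetoacetyl-CoA and acetyl-CoA, had 10.5, 9.32 and 13.5 RPKM in PHx 1, 3 and 4, against 8.99, 9.58 and 8.81 RPKM in Sham 1, 3 and 4. All 3 PHx values exceeded the Sham mean, but PHx 3 lay below Sham 3, and the log2 fold change of 0.29 ± 0.15 (SE) did not pass (edgeR adjusted p = 0.476). Without PHx 4 it was 0.12. Mvd, the decarboxylase that makes isopentenyl diphosphate, had the largest positive log2 fold change of the 27 and a wide spread, with 3.52, 2.38 and 7.48 RPKM in PHx 1, 3 and 4 and 3.23, 2.87 and 1.73 RPKM in Sham 1, 3 and 4. Its largest value was in PHx 4 and its smallest in Sham 4, and the log2 fold change of 0.77 had a 95% interval of -0.28 to 1.83. Without PHx 4 that fold change was 0.18. Mvk, the kinase of mevalonate, went the other way, with 4.89, 6.58 and 4.27 RPKM in PHx 1, 3 and 4 and between 5.83 and 6.86 RPKM in Sham, so that PHx 1 and PHx 4 were its lowest libraries.

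Fdps, which joins isoprene units into farnesyl diphosphate, had 9.20, 5.35 and 9.18 RPKM in PHx 1, 3 and 4, against 7.72 to 9.05 RPKM in Sham, with PHx 3 as the low library. Acat2, the cytosolic thiolase of the first step, was steady at 2.71 to 3.19 RPKM in PHx and 2.76 to 2.95 RPKM in Sham, with a log2 fold change of 0.02 and a 95% interval of -0.42 to 0.47. Pmvk, the second kinase, averaged 2.88 ± 0.491 RPKM in PHx and 2.80 ± 0.209 RPKM in Sham (SD, n = 3 each). Idi1, the isomerase of isopentenyl diphosphate, averaged 1.84 ± 0.412 RPKM in PHx and 1.86 ± 0.364 RPKM in Sham. Over the 7 genes the median log2 fold change was 0.02, all 7 had overlapping groups, and 4 values were positive.

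The next 10 enzymes turn farnesyl diphosphate into squalene and then cholesterol. Ebp, the isomerase that moves a double bond in the sterol ring (chromosome X, 8185329 to 8193512, mm10), had 14.2, 13.1 and 12.3 RPKM in PHx 1, 3 and 4, against 15.9, 17.3 and 16.9 RPKM in Sham 1, 3 and 4. The groups did not overlap, and the fold of 0.790 had a 95% interval of 0.659 to 0.946 (edgeR adjusted p = 0.283). Dhcr7, the reductase of the final step to cholesterol (chromosome 7, 143823167 to 143848410), had 4.13, 3.71 and 2.46 RPKM in PHx 1, 3 and 4 and 5.01, 5.34 and 4.55 RPKM in Sham 1, 3 and 4. PHx 4 was its lowest library, and the log2 fold change of -0.53 ± 0.21 became -0.34 without PHx 4. These were the 2 enzymes of the 17 for which the groups did not overlap. Both had PHx below Sham (11.8%, near the 9.96% of all genes tested).

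For the other 8 enzymes of this stretch the groups overlapped. Sqle, the squalene epoxidase, averaged 4.0 ± 0.440 RPKM in PHx and 4.57 ± 0.623 RPKM in Sham (SD, n = 3 each). Msmo1, which removes methyl groups from the ring, was among the steadiest, at 6.46 ± 0.672 RPKM in PHx and 6.60 ± 0.321 RPKM in Sham, a log2 fold change of -0.03 with a 95% interval of -0.38 to 0.32. Nsdhl, its partner dehydrogenase, stood at 5.43, 4.01 and 2.84 RPKM in PHx 1, 3 and 4, on both sides of the 4.04 to 4.84 RPKM of Sham. Tm7sf2, a sterol reductase, likewise ranged from 3.97 to 6.67 RPKM in PHx and from 4.60 to 5.65 RPKM in Sham. Its locus overlaps that of Vps51 on the same strand, so its counts may hold reads of that gene.

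Fdft1, the squalene synthase, had 2.17, 2.31 and 3.57 RPKM in PHx 1, 3 and 4, against 2.00 to 2.72 RPKM in Sham, and its high value was again in PHx 4. Its locus overlaps Ctsb, the cathepsin B gene, on the opposite strand, and without stated use of strand their reads cannot be told apart. Sc5d, a desaturase, averaged 4.06 ± 0.565 RPKM in PHx and 3.69 ± 0.345 RPKM in Sham, and Hsd17b7, a keto-reductase, 0.795 ± 0.0565 RPKM in PHx and 0.889 ± 0.0774 RPKM in Sham. Lss, the lanosterol synthase, ranged from 0.412 to 0.622 RPKM in PHx and from 0.340 to 0.749 RPKM in Sham. Like Fdft1, the loci of Lss, Idi1 and Soat1 overlap an annotated gene on the opposite strand. The median log2 fold change of the 10 was -0.07, with 7 negative values.

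The 5 genes of sterol sensing all had negative log2 fold changes, with a median of -0.19, where 47% of all genes tested had negative ones. For 3 of the 5 the PHx libraries lay below all Sham libraries (against 9.96% of all genes), while 0 of 5 passed the test. Srebf2, the SREBP gene that mainly drives cholesterol synthesis (chromosome 15, 82147269 to 82205379), had 17.3, 13.7 and 14.9 RPKM in PHx 1, 3 and 4, against 19.4, 19.9 and 17.3 RPKM in Sham 1, 3 and 4. The fold was 0.812, with a 95% interval of 0.671 to 0.982 (edgeR adjusted p = 0.359), and PHx 1 and Sham 4 were almost level. Scap, the escort protein (chromosome 9, 110333288 to 110384949), had 11.4, 10.4 and 11.3 RPKM in PHx 1, 3 and 4 and 13.2, 13.7 and 12.2 RPKM in Sham 1, 3 and 4, a fold of 0.848 (edgeR adjusted p = 0.377).

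Srebf1, the SREBP gene known above all for fatty acid synthesis and itself a target of LXR (chromosome 11, 60199084 to 60222686), had 17.8, 16.0 and 18.6 RPKM in PHx 1, 3 and 4, against 21.6, 19.5 and 18.6 RPKM in Sham 1, 3 and 4. The closest libraries, PHx 4 and Sham 4, differed by less than 0.1 RPKM. Insig1, an SREBP target, did not separate, at 11.1, 13.4 and 13.7 RPKM in PHx 1, 3 and 4 and 11.5, 11.5 and 17.5 RPKM in Sham 1, 3 and 4. Sham 4 set its difference, and the log2 fold change of -0.09 became 0.11 without that library. Srebf1, Scap, Insig1 and Insig2 each overlap an annotated gene on the opposite strand. Insig2, the relative of Insig1, averaged 8.68 ± 0.799 RPKM in PHx and 9.24 ± 0.629 RPKM in Sham (SD, n = 3 each).

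Among the genes of transport, export and storage, Mylip had the largest log2 fold change. This ubiquitin ligase, which marks lipoprotein receptors for breakdown and is induced by LXR (chromosome 13, 45389742 to 45411940), had 126, 232 and 102 RPKM in PHx 1, 3 and 4, against 239.8, 241 and 251 RPKM in Sham 1, 3 and 4. The Sham libraries lay close together, PHx 3 lay just below them, and PHx 1 and PHx 4 lay far below. The log2 fold change was -0.67 ± 0.29, with a 95% interval of -1.35 to 0.01 (edgeR adjusted p = 0.40). Without PHx 3 it was -1.10 and passed (adjusted p = 0.0438), while over all 13 alternatives its adjusted p ranged from 0.0438 to 0.697.

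The exporters had fold changes of opposite sign. Abca1, which loads cholesterol onto apolipoprotein A-I, had 19.6, 24.7 and 29.7 RPKM in PHx 1, 3 and 4, against 21.9, 17.6 and 18.2 RPKM in Sham 1, 3 and 4. PHx 1 lay within the Sham range and the other PHx libraries above it, and the log2 fold change of 0.36 ± 0.17 did not pass (edgeR adjusted p = 0.425). Without PHx 4 it was 0.21. Abcg1, which exports sterol to mature high-density lipoprotein, had 33.8, 37.4 and 32.4 RPKM in PHx 1, 3 and 4 and 43.2, 42.6 and 37.3 RPKM in Sham 1, 3 and 4. Its groups overlapped by the narrow margin of PHx 3 over Sham 4, and its log2 fold change was -0.25 ± 0.11 (edgeR adjusted p = 0.408). Mylip, Abca1, Abcg1 and Srebf1 are all known targets of LXR, and their log2 fold changes differed in sign. Stard4, a cytosolic sterol carrier, averaged 15.1 ± 1.81 RPKM in PHx and 16.3 ± 1.55 RPKM in Sham, and Soat1, which esterifies cholesterol for storage, 6.24 ± 0.609 RPKM in PHx and 5.78 ± 0.542 RPKM in Sham (SD, n = 3 each).

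**Figure D3:**
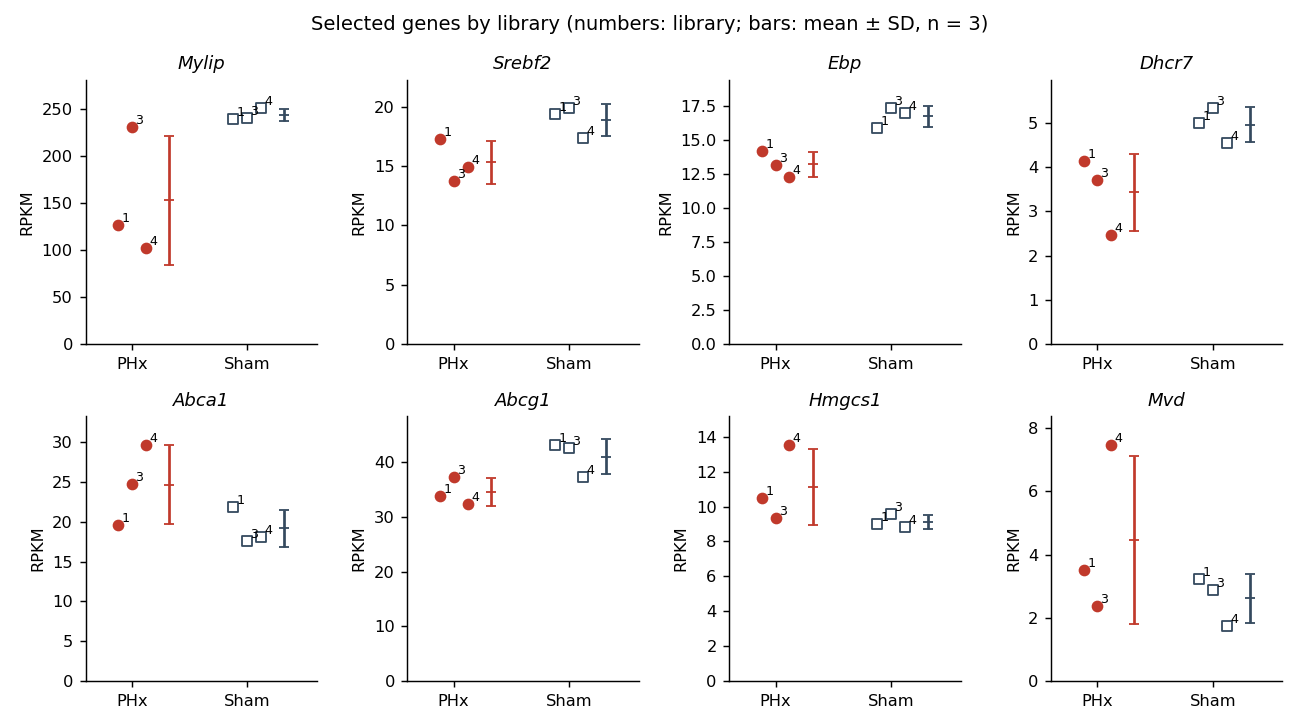
RPKM of 8 genes in each library, with the library number beside each point and the mean ± SD (n = 3) to the right of each group. Mylip is near the Sham level in PHx 3 and at 126 and 102 RPKM in PHx 1 and PHx 4, and Mvd and Abca1 have their highest value in PHx 4.

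Sums of cell-type markers also differed between the 6 libraries. Among the 3 PHx libraries Mylip had the order of the endothelial marker sum, with 102, 126 and 232 RPKM at 17191, 20414 and 27106 CPM in PHx 4, 1 and 3. The other genes whose groups did not overlap had other orders. Among the PHx libraries Srebf1, Srebf2 and Scap were lowest in PHx 3, and Ebp and Dhcr7 were highest in PHx 1. Per 1000 CPM of endothelial markers, Mylip stood at 6.20, 8.54 and 5.95 RPKM in PHx 1, 3 and 4, against 7.14, 7.28 and 7.91 RPKM in Sham 1, 3 and 4, and the groups overlapped. Srebf2 on that scale was at 0.846, 0.506 and 0.869 RPKM in PHx 1, 3 and 4, against 0.576, 0.600 and 0.545 RPKM in Sham. All 6 genes whose PHx libraries lay below Sham overlapped once set against the endothelial sum, a ratio chosen after the data were seen. That ratio was taken for these 6 genes alone. The sum was itself lower in every PHx library than in every Sham library, so dividing by it raises PHx against Sham for any gene. No conclusion is drawn from that overlap. PHx 1 and PHx 4 were also the libraries with the most neutrophil marker RNA. In these bulk samples fewer cells of a type and less RNA per cell cannot be told apart, and the part of other cells' RNA in these values was not tested.

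**Figure D4:**
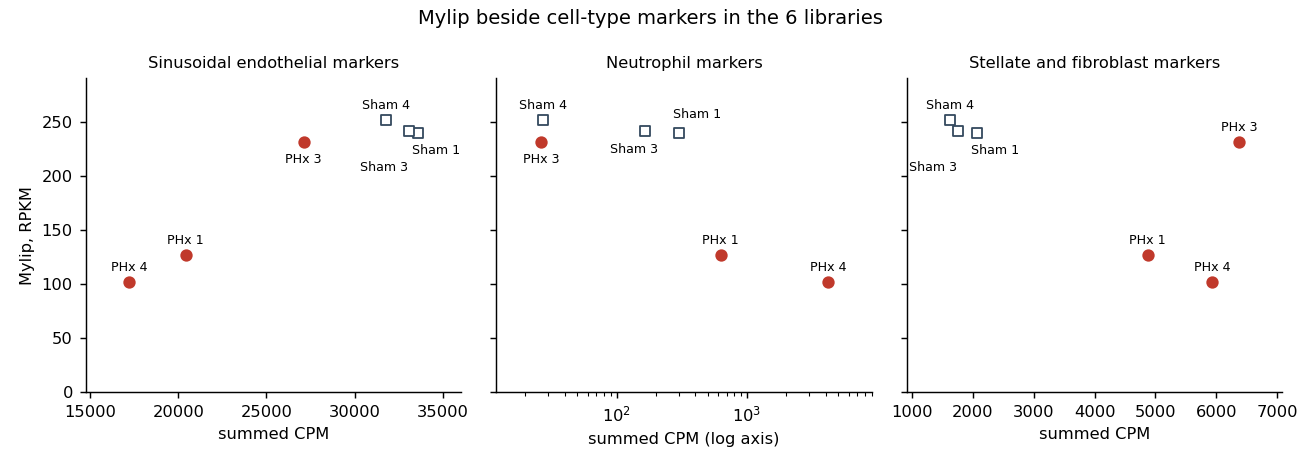
Mylip in RPKM against the summed CPM of sinusoidal endothelial, neutrophil (log axis) and stellate and fibroblast markers in each of the 6 libraries, with PHx as filled circles and Sham as open squares. PHx 4 and PHx 1 have the lowest Mylip and endothelial values and the highest neutrophil values, while PHx 3 has 232 RPKM of Mylip with the highest stellate and fibroblast sum.

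The PHx libraries also differed among themselves across the 27 genes. PHx 3 was the highest of the 6 libraries for 0 of the 27 and the lowest for 10 (37%), against 14.2% and 14.9% over all genes tested. PHx 4 was highest for 7 and lowest for 8 of the 27 (25.9% and 29.6%), close to its 26.6% and 25.4% over all genes. Summed over the 17 synthesis enzymes, PHx 1, 3 and 4 held 86.5, 71.8 and 83.8 RPKM, against 82.9, 85.4 and 83.1 RPKM in Sham 1, 3 and 4, so PHx 3 alone stood outside the narrow band of the rest. PHx 3 also had the lowest hepatocyte marker sum, 892 CPM against at least 1866 CPM in every other library. The part of hepatocyte RNA in the synthesis enzymes was not tested. The spread between libraries was larger in PHx than in Sham for 19 of the 27 genes (70.4%), close to the 64.9% over all genes tested.

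**Figure D5:**
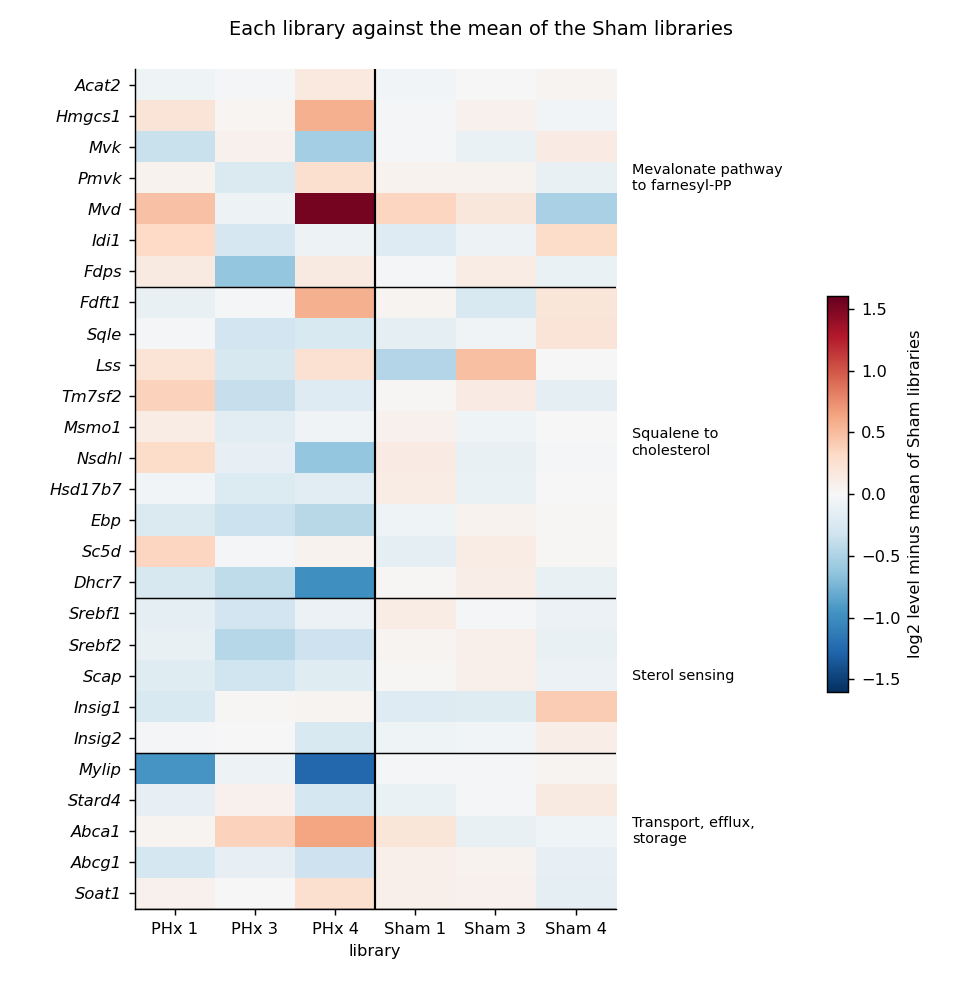
Log2 level of each gene in each library minus the mean log2 level of the Sham libraries, on RPKM plus 0.1, with PHx libraries left of Sham libraries and genes grouped by role. PHx 3 is below the Sham mean for most of the 17 synthesis enzymes, and the strongest single values are the low Mylip in PHx 4 and PHx 1, the low Dhcr7 in PHx 4 and the high Mvd in PHx 4.

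Other genes around the pathway gave the setting. Of 82 genes in 7 further lists, 1 was called higher and 0 lower by edgeR, with a median log2 fold change of -0.03. That count is near the 0.846% of all genes tested that edgeR called higher. DESeq2 called 3 higher and 1 lower of the 82, beside 3.8% of its genes higher and 0.439% lower. The called gene was Me1, the cytosolic malic enzyme that supplies NADPH for lipid synthesis (chromosome 9, 86581363 to 86695914), with 5.89, 4.59 and 5.24 RPKM in PHx 1, 3 and 4 against 2.80, 2.66 and 2.49 RPKM in Sham 1, 3 and 4. It rose by 0.98 ± 0.15 on the log2 scale (edgeR adjusted p = 0.0363), with no overlap of the groups. The call was lost when any single library was left out, with adjusted p between 0.0546 and 0.221 and a log2 fold change between 0.88 and 1.06, and over all 13 alternatives the adjusted p ranged from 2.91e-05 to 0.221. Me1 was 1 of 15 genes of fatty acid synthesis, whose median was 0.05, and the other 14 did not pass in edgeR. Scd2, a fatty acid desaturase named here after its values were seen, passed in DESeq2 (adjusted p = 0.0348), with 19.1, 15.5 and 20.2 RPKM in PHx 1, 3 and 4 against 13.9, 11 and 10.9 RPKM in Sham 1, 3 and 4.

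The remaining lists had 0 genes called by edgeR each. For 13 genes of the isoprenoid branch, which uses farnesyl diphosphate for protein prenylation, dolichol and ubiquinone, the median log2 fold change was -0.09, with Nus1 at 0.19 and Fnta at -0.06. For 11 genes of SREBP processing it was -0.07, with Pgrmc1 at -0.22. Genes of intracellular sterol transport (18, median -0.02) included Lipa, the lysosomal lipase that frees cholesterol from its esters, at 0.02, and Gramd1a at 0.37. Gramd1a had 78.2 RPKM in PHx 4 and between 39 and 49.4 RPKM in the other libraries, and its log2 fold change was 0.041 without PHx 4. Among 9 LXR receptor and target genes (median -0.14), Nr1h2 stood at -0.14 and Rxra at -0.24.

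Lipoprotein uptake genes (9, median 0.06) held the most abundant transcript of all these lists. Gpihbp1, which anchors lipoprotein lipase to capillary endothelium, had 481, 639 and 431 RPKM in PHx 1, 3 and 4, against 698, 829.5 and 832 RPKM in Sham 1, 3 and 4. The groups did not overlap, and the log2 fold change of -0.61 ± 0.17 did not pass in edgeR (adjusted p = 0.213) but did in DESeq2 (adjusted p = 0.0494, over all 13 alternatives 0.0494 to 0.557). Lpl, the lipase itself, named here after its values were seen, had 8.02, 8.96 and 11.6 RPKM in PHx 1, 3 and 4, against 6.28, 2.80 and 4.32 RPKM in Sham 1, 3 and 4. All its PHx libraries lay above all Sham libraries, and its log2 fold change of 1.09 ± 0.30 did not pass in edgeR (adjusted p = 0.206) but did in DESeq2 (adjusted p = 0.0094). Endothelial marker sums were lower in PHx than in Sham, and stellate and fibroblast marker sums were higher. The part of these cell types in the values of Gpihbp1 and Lpl was not tested. Cd36, a fatty acid and scavenger receptor, averaged 184 ± 35.8 RPKM in PHx and 177 ± 20.5 RPKM in Sham. For 7 oxysterol enzymes the median was 0.48, and 5 of the 7 had positive log2 fold changes, with overlapping groups for all 7. The largest, 1.61, was that of Cyp7a1, named here after its values were seen. Cyp7a1 averaged only 0.103 RPKM over the 6 libraries, and its 95% interval was -0.92 to 4.13. The most abundant of the 7, Hsd3b7 at -0.08 and Cyp27a1 at -0.19, were the 2 negative ones, and Cyp27a1 was at -0.0079 without PHx 4.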

How the data were processed

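RNA-seq of 6 libraries, 3 PHx and 3 Sham, was analysed from 1 deposited table. It gives whole-number counts per gene and library and RPKM values that the authors computed. The deposited RPKM equalled the count divided by gene length and library total for 100% of values (relative tolerance 1e-06). Tools listed in the submitters' processing notes are TopHat2 2.0.13 and bcl2fastq, with the build mm10 (GRCm38). The counting program and use of strand are not given in the sources used here; of the 27 genes 8 overlap a gene on the opposite strand.

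The test was edgeR 4.0.16 under R 4.3.3 on the counts as deposited (filterByExpr, TMM, robust quasi-likelihood F-test, group as the only term), two-sided, with Benjamini-Hochberg adjustment over 19033 genes and calls under 0.05. Standard errors are the absolute log2 fold change over the square root of F, and 95% intervals are per gene. RPKM in the text was recomputed from counts and the deposited length in base pairs, with TMM-scaled library sizes. The test was also run on simulated data of 18625 genes. It recovered 18.4% of 98 changes of log2 size 1 and 65.6% of 93 changes of log2 size 2, with 13 false calls. A gene that was not called can therefore still differ, and a gene that was called can be a false call. Limma-voom (limma 3.58.1), DESeq2 1.42.0, other scalings and filters, the replicate number as a block and leaving out each library were tried. The fits planned for RPKM alone were not run.

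The genes and lists were chosen with earlier results of these data known. All 27 genes are named; of each further list, called genes or else its 2 most abundant. Some genes that this rule or the marker lists hold are not reported here. No libraries were copies of each other (chi-square per degree of freedom at least 37.4 in every pair). Deviations from the group means were not shared by libraries of one number (correlations -0.08, -0.19 and -0.04).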

Additional observations from a re-analysis of the deposited data

How the results depend on the processing

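Of 351 log2 fold changes of the 27 genes under 13 alternatives, 326 kept their sign and their side of the threshold. Without PHx 3 Mylip passed, so leaving out each library gave 0 to 0 higher and 0 to 1 lower of the 27. The 24 sign changes fell on 11 genes with small fold changes, none of them called. Acat2 was at -0.014 with upper-quartile scaling and at -0.0080 with no filter, and Idi1 at 0.011 with the filter of 1 CPM in 3 libraries. Leaving out each library gave -0.055 to 0.059 for Acat2, -0.084 to 0.15 for Pmvk, -0.21 to 0.12 for Idi1, -0.21 to 0.13 for Fdps, -0.10 to 0.29 for Fdft1, -0.22 to 0.35 for Lss, -0.30 to 0.10 for Tm7sf2, -0.12 to 0.028 for Msmo1, -0.37 to 0.10 for Nsdhl, -0.21 to 0.11 for Insig1 and -0.0030 to 0.16 for Soat1. Lipa was at -0.012 with upper-quartile scaling and -0.0077 with no filter, and ranged from -0.089 to 0.12 when libraries were left out, as Cd36 did from -0.072 to 0.20. When each library was left out, the median of the 27 ranged from -0.21 to -0.071 and that of squalene-to-cholesterol enzymes from -0.26 to -0.036, both lowest without PHx 1, and that of sterol-sensing genes from -0.27 to -0.14, lowest without Sham 4. In the same fits medians of the mevalonate and transport genes ranged from -0.05 to 0.13 and from -0.21 to -0.03. With all 6 libraries the median of the 27 ranged from -0.12 with upper-quartile scaling to -0.064 with the filter of 1 CPM in 3 libraries.

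Over all genes, 161 higher and 3 lower calls became 359 and 30 with no filter, 728 and 84 with DESeq2, 94 and 1 with limma-voom, 14 and 1 with the replicate block, and 0 to 160 and 0 to 9 when each library was left out. Without Sham 4 edgeR called 0. Of the 82 further genes, DESeq2 called 3 higher and 1 lower, while limma-voom, the replicate block and each leave-out called 0 higher, Me1 being lost (limma-voom adjusted p = 0.0562, replicate block adjusted p = 0.137). For these counts the cause was not tested. The numbers are not stated to pair libraries, none of them had its highest correlation with its namesake, and the replicate block changed no call among the 27. At this depth the filter removed none of the 27, and the number of libraries limits the precision.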
